A study of Homo sapiens with 18 samples.

Results

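The genes described here are 10 imprinted genes, H19, IGF2, MEG3, DLK1, PEG3, PEG10, MEST, SNRPN, NDN and KCNQ1OT1, out of 57905 Ensembl gene IDs counted in each library. They are listed by symbol, each symbol matched 1 Ensembl ID, and all 10 passed the filter on low counts in every comparison. RNA was sequenced from BE(2)-m17, a human neuroblastoma cell line, in 18 libraries from 3 experiments labelled RNA1, RNA2 and RNA3. Cells of every group carried the transposable vector pSBbi-Hyg-APP, which expresses the amyloid precursor protein APP and was selected with hygromycin. A further vector, selected with puromycin, was either empty (pSBbi-Pur, the Puro line) or encoded codon-optimized wild-type ABCC1 (pSBbi-Pur-ABCC1, the ABCC1 line), an organic anion exporter also known as MRP1. Each line gave 3 libraries per experiment, from 14000000 plated cells lysed for RNA on day 4, which makes 6 groups of 3. By the study's methods the RNA1 libraries were made with an mRNA kit, and those of RNA2 and RNA3 with a total RNA kit and on another instrument, so the lines were compared within an experiment. The RNA1 labels name the mRNA kit but, in another field, also the total RNA kit. The libraries of a group were repeated platings of 1 selected population, which the sources do not describe as a clone. The p-values therefore measure the spread between platings, and a difference due to ABCC1 cannot be told apart from any other difference between the selected populations of an experiment.

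An imprinted gene is transcribed mainly from the copy inherited from 1 parent, because DNA methylation laid down in the egg or the sperm silences or insulates the other copy. Imprinted genes lie in clusters whose members share a control region, and several of them are growth regulators of the fetus, the placenta and the nervous system. In tumours and in cultured lines the methylation at these control regions can be gained or lost, so that the level of an imprinted gene is often read as a mark of a cell population's epigenetic state. The counts used here do not separate the parental copies, and no methylation was measured. The 10 genes lie in 6 clusters. On chromosome 11, IGF2 encodes a fetal growth factor expressed from the paternal copy, H19 a maternally expressed noncoding RNA next to it, and KCNQ1OT1 a paternally expressed noncoding RNA antisense to KCNQ1. On chromosome 14, DLK1 encodes a membrane protein related to the Notch ligands and expressed from the paternal copy, and MEG3 a maternally expressed noncoding RNA. The others are expressed from the paternal copy. PEG10 (chromosome 7) derives from a retrotransposon, MEST (chromosome 7) has a hydrolase fold, SNRPN (chromosome 15) is a splicing factor subunit, NDN (chromosome 15) belongs to the MAGE family and PEG3 (chromosome 19) is a zinc finger protein.

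The imprint of several of these genes is carried by CpG dinucleotides at or near the promoter, and 4 upstream windows are shown because they differ widely in CpG content. Each is the 250 bases before a RefSeq transcript start on GRCh38.p14, read 5′ to 3′ on the gene's strand, with CpG dinucleotides in capitals and, where a gene has several starts, the window with the most CpG. The windows are chr11:2001267-2001516 on the minus strand for H19, chr14:100825858-100826107 on the plus strand for MEG3, chr15:23687306-23687555 on the minus strand for NDN and chr15:24954737-24954986 on the plus strand for SNRPN.
H19: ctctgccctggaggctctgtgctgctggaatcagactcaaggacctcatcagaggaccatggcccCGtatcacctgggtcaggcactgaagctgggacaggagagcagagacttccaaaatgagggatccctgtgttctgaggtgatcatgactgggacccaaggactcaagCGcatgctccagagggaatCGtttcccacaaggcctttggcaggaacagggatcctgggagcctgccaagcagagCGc
MEG3: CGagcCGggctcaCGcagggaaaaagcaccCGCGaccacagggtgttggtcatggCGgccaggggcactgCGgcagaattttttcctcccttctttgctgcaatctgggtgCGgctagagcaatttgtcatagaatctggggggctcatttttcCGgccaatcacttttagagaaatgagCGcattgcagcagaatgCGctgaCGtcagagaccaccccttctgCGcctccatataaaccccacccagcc
NDN: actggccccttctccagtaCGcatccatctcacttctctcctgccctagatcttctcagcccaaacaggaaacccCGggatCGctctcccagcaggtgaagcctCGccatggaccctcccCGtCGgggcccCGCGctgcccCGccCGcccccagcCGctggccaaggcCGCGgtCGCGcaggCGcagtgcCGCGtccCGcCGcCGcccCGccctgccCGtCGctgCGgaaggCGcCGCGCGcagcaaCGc
SNRPN: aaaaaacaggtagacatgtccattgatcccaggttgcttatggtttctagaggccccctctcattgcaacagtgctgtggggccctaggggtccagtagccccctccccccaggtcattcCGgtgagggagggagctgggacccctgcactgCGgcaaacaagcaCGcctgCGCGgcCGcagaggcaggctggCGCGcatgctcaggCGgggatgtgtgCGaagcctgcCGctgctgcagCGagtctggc
The NDN window held 30 CpG, a number reached by 12.4% of 35116 RefSeq windows of this length, and the H19 window held 4. MEG3 had 13, SNRPN 12 and MEST 20, against a median of 11 over all windows. TGCCGC, the core bound by the imprint-keeping factor ZFP57 when methylated, occurred on either strand in 4 of the 5 windows found for these genes (not in H19) and in 12.7% of all windows. TGACGTCA, the cAMP response element, was found in the MEG3 window and in 1.65% of all windows, and TATAAA also in that of MEG3 and in 10.7% of all. For MEG3, MEST and SNRPN the window richest in CpG was taken, and TGCCGC holds a CpG, so their counts are not comparable with the shares over all windows. These are letter matches and show neither binding nor methylation.

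Between 8866994 and 57937653 fragments of each library were counted on a feature, with ranges of 27433393 to 57937653 in RNA1, 19577853 to 30996228 in RNA2 and 8866994 to 13332413 in RNA3. The codon-optimized ABCC1 insert had at least 51035 counts in every ABCC1 library and at most 15 in every Puro library. Of 12 markers of adrenergic neuroblastoma cells, HAND2, GATA3, CHGA, DBH and MYCN were high in every experiment. The summed level of this list was 14028 to 15099 CPM in the RNA1 Puro libraries and 11971 to 13294 CPM in the ABCC1 libraries, with 9 of 12 genes called, 3 higher and 6 lower, where 37.6% of all genes tested in RNA1 were called. A list of 9 mesenchymal genes summed to 330 to 350 CPM and 366 to 369 CPM in the same groups, with 4 called higher and 3 lower. The mesenchymal sums were 243 to 357 CPM and 261 to 282 CPM in RNA2, and 296 to 341 CPM and 267 to 286 CPM in RNA3, with none called in either. The part of these shifts in the differences below was not tested. The 12 adrenergic genes summed to 7369 to 9347 CPM and 9409 to 10514 CPM in RNA2, with none called, and to 8656 to 13098 CPM and 9715 to 10979 CPM in RNA3, with 1 called higher and 2 lower, beside 2.8% of all genes. No blood marker had more than 3 counts in any RNA1 library, and HBB had none. The 4 blood markers summed to 5.25 to 6.59 CPM in the Puro and 1.34 to 3.77 CPM in the ABCC1 libraries of RNA2, and to 15.6 to 18.3 CPM and 9.71 to 14.7 CPM in RNA3, where PTPRC was called lower. The endothelial markers CDH5 and VWF summed to 14.9 to 26.4 CPM and 6.15 to 12.3 CPM in RNA2, with VWF called lower, and to 46.1 to 57.3 CPM and 36.3 to 44.9 CPM in RNA3. Mean levels in RNA1 and RNA3 were 0.0255 and 13.2 CPM for PTPRC, 0.0110 and 13.9 CPM for CDH5, and 0.501 and 33.0 CPM for VWF. The background given next was also higher in RNA3 than in RNA1, and whether these marker reads are background was not tested. Counts on 350 olfactory receptor genes, taken as silent, measured the background of each library. Per kilobase of exon they were at most 0.00558 CPM in RNA1. They ranged from 0.488 to 0.663 CPM in the Puro and 0.140 to 0.431 CPM in the ABCC1 libraries of RNA2, and from 1.48 to 1.65 CPM and 1.15 to 1.44 CPM in RNA3, so on the TMM scale this background was lower in every ABCC1 library than in any Puro library of its experiment. Without TMM, as a share of assigned counts, the lines overlapped in RNA3, with ABCC1 replicate 1 at 1.49 and Puro replicate 2 at 1.38 CPM per kilobase.

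The levels of the 10 genes differed widely when compared per kilobase of exon. The whole exon length was used, including bases shared with other genes, on which no fragment was counted. Such bases made up 27.6% of IGF2, 42.1% of SNRPN, 14.3% of MEST, 11.2% of PEG3, 3.44% of MEG3 and 0.13% of KCNQ1OT1. The levels of these genes are therefore understated, and their ranks and multiples of the background depend on this length. CPM are read counts scaled to a common library total by TMM within an experiment, and fewer cells that express a gene cannot be told apart from less RNA per cell. In RNA1, over its 6 libraries, DLK1 stood highest at a mean of 314 CPM per kilobase, followed by IGF2 at 289, PEG10 at 116, MEG3 at 28.4, NDN at 16.3, PEG3 at 7.85 and H19 at 5.72. SNRPN (0.419), MEST (0.410) and KCNQ1OT1 (0.106) were lowest, all still at least 23.0 times the olfactory receptor level. The ranges of DLK1 and IGF2 overlapped, as did those of SNRPN and MEST, and no other neighbours in this order did. DLK1 stood above IGF2 in the Puro libraries (434 and 361) and below it in the ABCC1 libraries (194 and 218). Over the 5055 of 6979 exon bases where its fragments could be counted, IGF2 would stand above DLK1 in RNA1. In RNA2 the order began with IGF2 at 190, DLK1 at 103, MEG3 at 40.9 and PEG10 at 31.6 CPM per kilobase, and in RNA3 with IGF2 at 440, DLK1 at 177, MEG3 at 62.9 and PEG10 at 41.4. MEG3 and PEG10 overlapped in both. The lower end of the list came close to the background there. KCNQ1OT1 was at 1.88 CPM per kilobase in RNA2 and 2.58 in RNA3, or 4.26 and 1.82 times the olfactory receptor level, and SNRPN at 2.75 and 1.38 times it. H19 lay at 1.66 and 1.37 times the background and MEST at 0.876 and 0.749 times, so that MEST is not distinguished from background reads in RNA2 and RNA3, where it exceeded the olfactory receptor level in 2 of 6 and 0 of 6 libraries. Over the 2019 of 3488 exon bases where its fragments could be counted, SNRPN would stand above KCNQ1OT1 in RNA2 and RNA3. KCNQ1OT1, an unspliced RNA, was the lowest of the 10 in RNA1 and, by whole exon length, ranked 7 in RNA2 and RNA3. Kit and experiment cannot be told apart in this contrast.

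**Figure D1:**
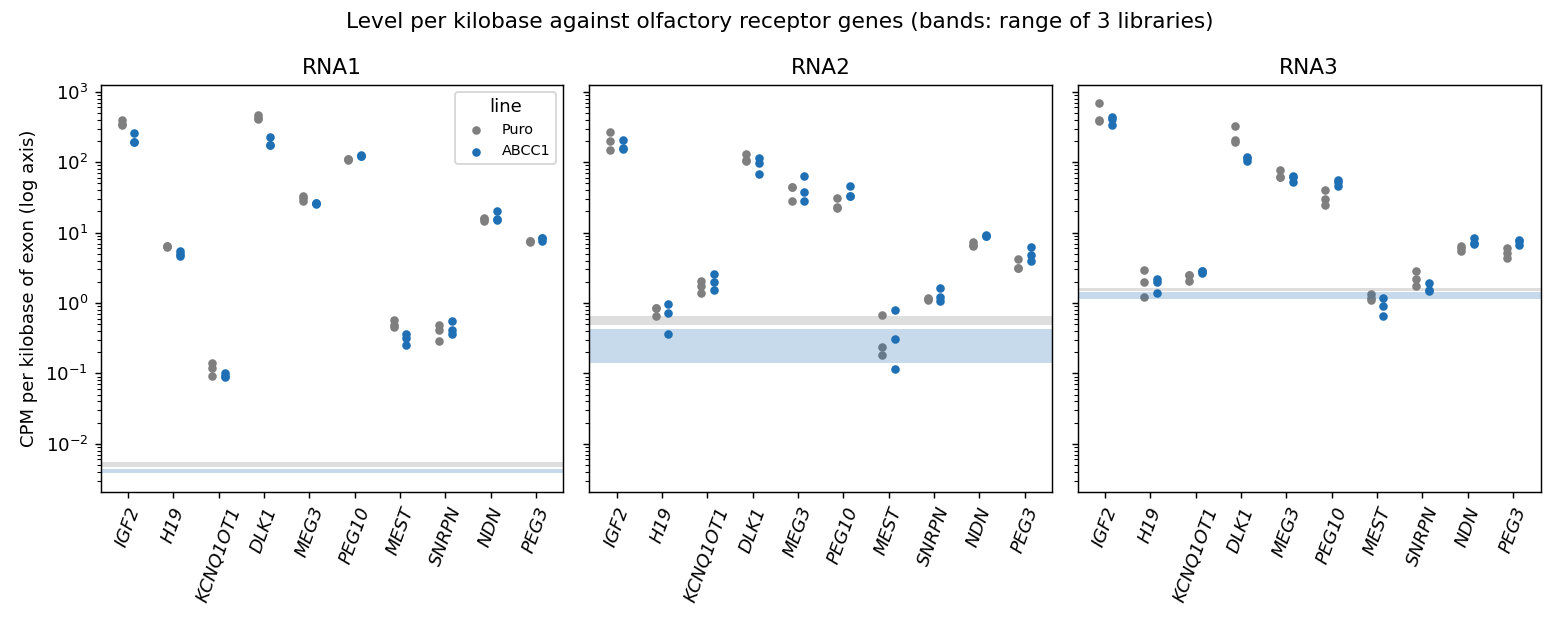
Level of each imprinted gene per kilobase of exon (CPM per kilobase, log axis) in the Puro and ABCC1 libraries of each experiment, 1 point per library, with bands for the range of the 350 olfactory receptor genes over the 3 libraries of a line. In RNA1 all 10 genes sit far above the bands, while H19, SNRPN and MEST lie near them in RNA2 and RNA3, and libraries of H19 and MEST fall within or below them. The length includes exon bases shared with other genes, where nothing was counted, 42.1% of those of SNRPN.

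The comparison of the lines asks how far the imprinted genes differ between the selected ABCC1 and Puro populations of each experiment. In RNA1, 6 of the 10 genes had an adjusted p of at most 0.05 in the edgeR quasi-likelihood test, adjusted by Benjamini-Hochberg over all genes. DLK1, IGF2, MEST, H19 and MEG3 were lower with ABCC1 and PEG10 was higher. This stands against 37.6% of 16995 genes called in RNA1, 17.9% higher and 19.7% lower. In RNA2 none was called, against 1.7% of 34091 genes (1.25% higher and 0.458% lower). The unadjusted p was below 0.05 for 3 of them, PEG10, PEG3 and NDN. DESeq2 called 1 (PEG10), and a spread shared by all 18 libraries gave 2 calls (PEG10 and PEG3). In RNA3, DLK1 was called lower and PEG10 higher, 2 of 10 against 2.8% of 36509 genes (2.03% higher and 0.767% lower). The median log2 fold change (log2FC, ABCC1 against Puro) of the 10 genes was −0.27 in RNA1, 0.18 in RNA2 and −0.17 in RNA3, beside medians over all genes of 0.01, −0.19 and −0.09. In RNA2 another scaling of the libraries, RLE size factors, moved the median of all genes from −0.19 to −0.08, so RNA2 values are best read against it. DLK1, IGF2 and H19 had a negative and PEG10, PEG3 and NDN a positive log2FC in all 3 experiments, which share no libraries. Such a common sign was found in 6 of the 10 and in 49.9% of 16689 genes tested in all 3. The study repeated its work with cryopreserved and with newly transfected cells, so some experiments may share the same selected populations. A common sign may therefore not come from 3 separate derivations of the lines. For 3 of the 6 a sign turned without 1 library, namely H19 in RNA2 (0.11 without ABCC1 replicate 2) and RNA3 (0.23 without Puro replicate 1, 0.0247 without ABCC1 replicate 3), IGF2 in RNA3 (0.0269 without Puro replicate 2) and NDN in RNA1 (−0.00763 without ABCC1 replicate 3). In a joint fit of the 18 libraries, no gene of the 10 passed the test of the difference between experiments, against 1.19% of 46225 genes. DLK1 was nearest, with an unadjusted p of 0.0103, the only one below 0.05, and an adjusted p of 0.293 (same test), and DESeq2 called it (adjusted p = 0.0336).

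**Figure D2:**
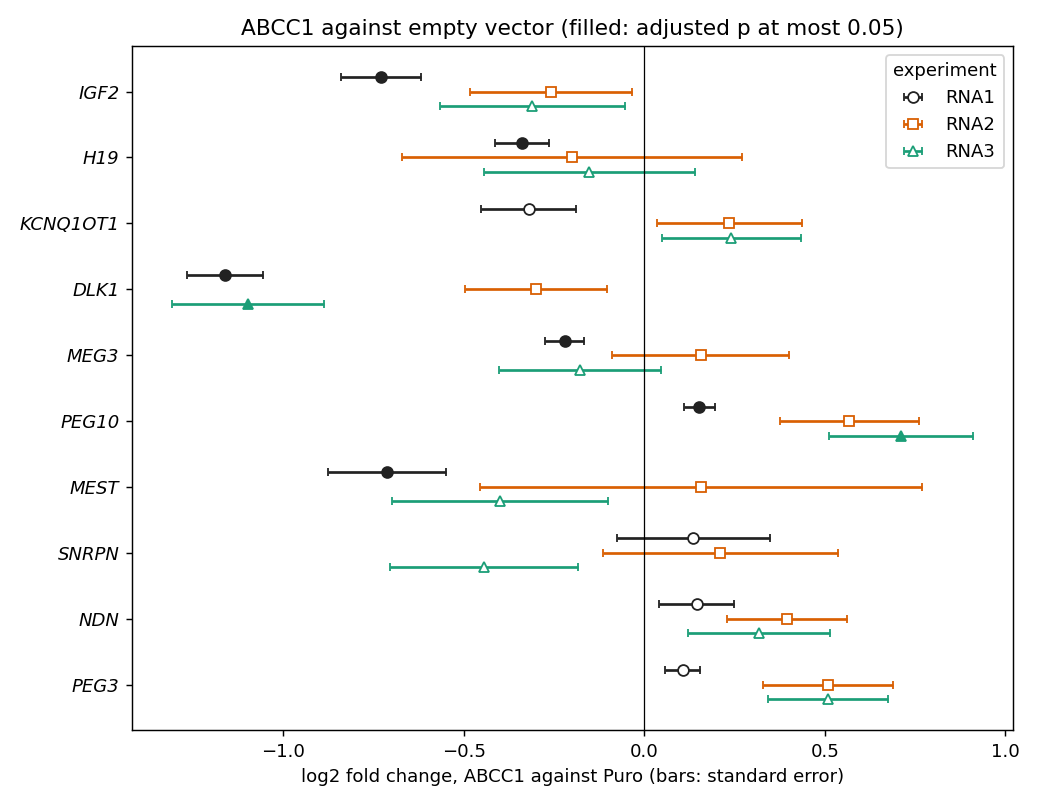
Log2FC of each imprinted gene, ABCC1 against Puro, with its standard error, in RNA1, RNA2 and RNA3; filled symbols have an adjusted p of at most 0.05. DLK1 lies left of 0 and PEG10 right of 0 in all 3 experiments, with filled symbols for both in RNA1 and RNA3 and none for any gene in RNA2.

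The variation between replicates beyond counting noise was 5.67% of a gene's level in RNA1, 35.3% in RNA2 and 19.7% in RNA3. With a spread shared across all 18 libraries, or with the olfactory receptor level as a covariate, DLK1 was the 1 gene of the 10 still called in RNA1. The log2FC in these fits was −0.62 and −0.61 for IGF2, −0.60 and −1.05 for MEST, −0.24 and −0.20 for H19, −0.12 and −0.18 for MEG3, and 0.25 and 0.17 for PEG10. As a share of assigned counts, the olfactory receptor level was 0.00472 to 0.00554 CPM per kilobase in the Puro and 0.00385 to 0.00447 in the ABCC1 libraries of RNA1. In RNA2 it was at least 0.524 in the Puro and at most 0.431 in the ABCC1 libraries. The covariate thus separates the lines in both, and can hardly be told apart from line in fits of 6 libraries. Why the calls were lost was not tested.

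DLK1 (ENSG00000185559, GRCh37 chromosome 14, 101192042 to 101201539, plus strand, no overlapping exon of another gene) was lower with ABCC1. In RNA1 its Puro libraries had 1073, 968 and 941 CPM and the ABCC1 libraries 398, 405 and 530 CPM, from 13051 to 46664 counts. The groups did not overlap, and the ABCC1 level was 0.447 times that of Puro (log2FC −1.16, standard error 0.11, adjusted p = 3.71e-05, edgeR quasi-likelihood test, Benjamini-Hochberg adjusted). In RNA2 the values were 241, 299 and 245 CPM against 259, 224 and 154 CPM. Here the groups overlapped (log2FC −0.30, standard error 0.20, adjusted p = 0.377, same test). In RNA3 DLK1 had 437, 740 and 479 CPM in the Puro libraries and 236, 264 and 274 CPM in the ABCC1 libraries. Every ABCC1 library was lower than every Puro library, at 0.468 times the level (log2FC −1.10, standard error 0.21, adjusted p = 0.000286, same test). Puro replicate 2 of RNA3 was the highest, and without it the log2FC was −0.82 and still called. DLK1 was called in RNA1 and RNA3 under all 13 alternatives run for each.

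MEG3 (ENSG00000214548, chromosome 14, 101245747 to 101327368, plus strand) lies downstream of DLK1. In RNA1 it had 446, 515 and 486 CPM in the Puro and 401, 422 and 418 CPM in the ABCC1 libraries. The groups did not overlap, and the difference was small (log2FC −0.22, standard error 0.05, adjusted p = 0.0082, edgeR quasi-likelihood test, Benjamini-Hochberg adjusted). In RNA2 it had 690, 692 and 448 CPM against 999.7, 589 and 451 CPM, and in RNA3 957, 972 and 1232 CPM against 829, 970 and 993 CPM. Groups overlapped in both (log2FC 0.16 and −0.18, adjusted p = 0.733 and 0.766, same test). Without ABCC1 replicate 1, which had the lowest olfactory receptor level of RNA2, the log2FC there was −0.22, and without Puro replicate 3 it was −0.0128. The ratio of DLK1 to MEG3 counts within a library needs no scaling between libraries. It was 2.07 ± 0.288 (SD, n = 3) in the Puro and 1.07 ± 0.169 in the ABCC1 libraries of RNA1, and 0.536 ± 0.198 and 0.278 ± 0.00685 in RNA3, without overlap in either. In RNA2 it was 0.442 ± 0.0991 and 0.327 ± 0.0622, with overlap. An exact two-sided permutation test of 3 against 3 libraries cannot go below p = 0.1, so none of the 15 ratios compared could pass 0.05. Those at 0.1 had a Benjamini-Hochberg adjusted p of 0.15.

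Of the other genes of the chromosome 14 cluster, 1 of 4 tested was called in RNA1 (MEG8), none of 6 in RNA2 and 2 of 6 in RNA3 (RTL1 and DIO3OS), all lower with ABCC1, beside 37.6%, 1.7% and 2.8% of all genes. RTL1, a paternally expressed retrotransposon-derived gene, had 314, 413 and 323 counts in the RNA3 Puro libraries and 223, 268 and 253 in the ABCC1 libraries (log2FC −0.66, standard error 0.16, adjusted p = 0.0089, edgeR quasi-likelihood test, Benjamini-Hochberg adjusted). DIO3OS, a noncoding RNA at the far end of the cluster, had 191, 108 and 127 counts against 101, 96 and 87 (log2FC −0.75, adjusted p = 0.0344, same test), close to the background per kilobase at 2.40 and 1.43 CPM. MEG8, a maternally expressed noncoding RNA, had 235, 149 and 201 counts against 205, 135 and 203 in RNA1, at 5.75 ± 0.543 and 3.77 ± 0.365 CPM (SD, n = 3, log2FC −0.62, adjusted p = 0.00123, same test). The ratio of DLK1 to RTL1 was 322 ± 19.3 in the Puro and 168 ± 9.41 in the ABCC1 libraries of RNA1, 15.5 ± 1.35 and 14 ± 2.93 in RNA2, and 16.4 ± 2.93 and 12.3 ± 0.836 in RNA3 (SD, n = 3). The groups were separate in RNA1 and RNA3.

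**Figure D3:**
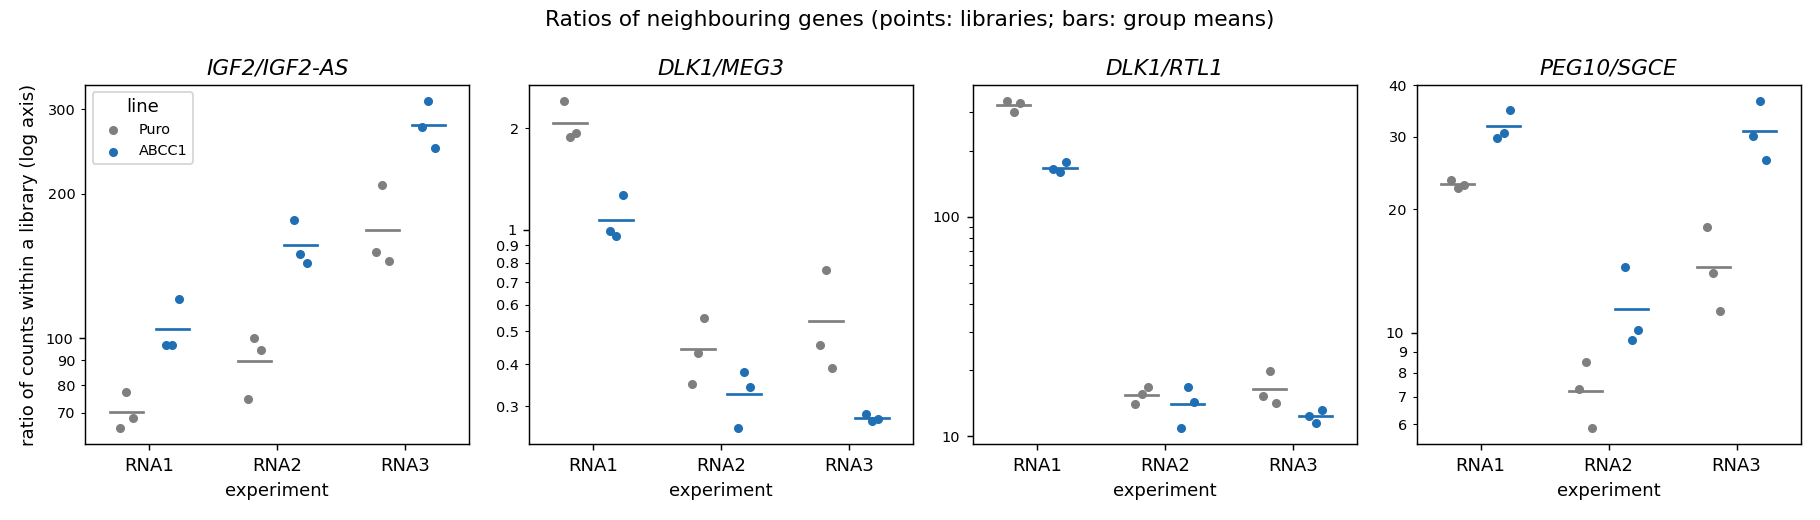
Ratio of the counts of neighbouring imprinted genes within each library (log axis), 1 point per library and a bar for the mean of each line, by experiment. IGF2/IGF2-AS and PEG10/SGCE are higher in the 3 ABCC1 libraries of every experiment, while DLK1/MEG3 and DLK1/RTL1 are lower without overlap in RNA1 and RNA3.

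IGF2 (ENSG00000167244, chromosome 11, 2150342 to 2170833, minus strand) took the most counts of the 10. In RNA1 it had 2462, 2756 and 2341 CPM in the Puro and 1366, 1373 and 1819 CPM in the ABCC1 libraries. The groups did not overlap, and the ABCC1 level was 0.603 times that of Puro (log2FC −0.73, standard error 0.11, adjusted p = 0.000811, edgeR quasi-likelihood test, Benjamini-Hochberg adjusted). Without the filter on low counts the adjusted p was 0.0566. In RNA2 it had 1049, 1890 and 1391 CPM against 1462, 1059 and 1099 CPM (log2FC −0.26, standard error 0.22, adjusted p = 0.513, same test). In RNA3 the Puro libraries had 2761, 4778 and 2653 CPM and the ABCC1 libraries 2351, 3027 and 2839 CPM (log2FC −0.31, standard error 0.26, adjusted p = 0.617, same test). Groups overlapped in both, and the sign in RNA3 rested on Puro replicate 2, without which the log2FC was 0.03. That library also had the largest protein-coding share of its experiment, 80.3%. With the olfactory receptor level as a covariate the RNA3 value was −0.83 (adjusted p = 0.00772, same test). IGF2 shares 27.6% of its exon bases with other annotated genes, mostly INS-IGF2, and fragments on shared bases were not counted for either, while INS-IGF2 itself had at most 11 counts in any library.

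IGF2-AS, antisense to IGF2, was called lower with ABCC1 in all 3 experiments. Its counts in the Puro libraries were 1644, 970 and 1082 in RNA1, 317, 563 and 306 in RNA2 and 200, 252 and 176 in RNA3. Those in the ABCC1 libraries were 796, 458 and 873, then 217, 154 and 237, then 100, 113 and 138. The log2FC was −1.31, −1.05 and −1.002, with adjusted p of 9.79e-08, 0.00893 and 0.000182 (edgeR quasi-likelihood test, Benjamini-Hochberg adjusted), and the normalized groups did not overlap in any experiment. The ratio of IGF2 to IGF2-AS was correspondingly higher with ABCC1, at 70.2 ± 6.36 against 105 ± 13.8 in RNA1, 89.9 ± 13.3 against 157 ± 17.3 in RNA2 and 168 ± 35.3 against 279 ± 31.4 in RNA3 (SD, n = 3, Puro first). IGF2 and IGF2-AS share 333 exon bases on opposite strands, and counting took no account of strand, so the RNA of these genes cannot be fully told apart. Per kilobase IGF2-AS lay at 9.54 (Puro) and 8.80 (ABCC1) times the olfactory receptor level in RNA2, and at 4.36 and 2.74 times in RNA3. On this scale that level was itself lower with ABCC1. The alternative fits were reported for the 10 genes and not for IGF2-AS.

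H19 (ENSG00000130600, chromosome 11, 2016406 to 2022700, minus strand) had 17.7, 18.3 and 17.9 CPM in the Puro libraries of RNA1 and 15.5, 13.98 and 13.1 CPM in the ABCC1 libraries. The groups did not overlap (log2FC −0.34, standard error 0.07, adjusted p = 0.00465, edgeR quasi-likelihood test, Benjamini-Hochberg adjusted). In RNA2 it had 22 to 72 and in RNA3 33 to 90 counts per library, near the background, with log2FC of −0.20 and −0.15 and overlapping groups (adjusted p = 0.828 and 0.858, same test). The IGF2 to H19 ratio overlapped between the lines in each experiment, at 140 ± 10.1 in the Puro and 108 ± 27.2 in the ABCC1 libraries of RNA1, 661 ± 193 and 710 ± 295 in RNA2, and 657 ± 281 and 550 ± 161 in RNA3 (SD, n = 3).

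KCNQ1OT1 (ENSG00000269821, chromosome 11, 2629558 to 2721224, minus strand) was not called in any experiment. Its counts were 371, 350 and 350 against 483, 298 and 467 in RNA1, where the CPM groups overlapped (log2FC −0.32, standard error 0.13, adjusted p = 0.0827, edgeR quasi-likelihood test, Benjamini-Hochberg adjusted). DESeq2 gave an adjusted p of 0.0478 there, the fit with no filter on low counts gave 0.0049, and without Puro replicate 1 the log2FC was −0.49 (adjusted p = 0.00721, edgeR). In RNA2 it had 188, 162 and 126 CPM against 238, 180 and 142 CPM, and in RNA3 231, 189 and 230 CPM against 260, 248 and 261 CPM. All ABCC1 libraries of RNA3 lay above all Puro libraries, with a log2FC of 0.24 in both experiments (standard errors 0.20 and 0.19, adjusted p = 0.506 and 0.600, same test). Of the other genes of this cluster, 3 of 9 tested were called in RNA1, beside 37.6% of all genes, and 1 of 14 (IGF2-AS) in RNA2 and in RNA3, beside 1.7% and 2.8%. PHLDA2, a maternally expressed growth-restraining gene, was called higher with ABCC1 in RNA1 (59, 44 and 36 against 114, 70 and 167 counts, log2FC 0.80, adjusted p = 0.0066, same test). NAP1L4, a histone chaperone gene, was called lower there by a small amount (log2FC −0.14, adjusted p = 0.02, same test).

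PEG10 (ENSG00000242265, chromosome 7, 94285637 to 94299007, plus strand, no overlapping exon) was higher in the ABCC1 than in the Puro libraries of each experiment without overlap. In RNA1 it had 746, 735 and 711 CPM in the Puro and 800, 804 and 833 CPM in the ABCC1 libraries (log2FC 0.15, standard error 0.04, adjusted p = 0.0151, edgeR quasi-likelihood test, Benjamini-Hochberg adjusted). This 1.11-fold difference lost its call without Puro replicate 3 (adjusted p = 0.0838). In RNA2 the values were 149, 204 and 153 CPM against 307, 223 and 222 CPM (log2FC 0.57, standard error 0.19, adjusted p = 0.106, same test). In RNA3 they were 200, 263 and 161 CPM against 301, 370 and 351 CPM, a 1.64-fold higher level (log2FC 0.71, standard error 0.20, adjusted p = 0.0284, same test). The RNA3 call was lost without Puro replicate 1 or 3 or ABCC1 replicate 2 or 3 (adjusted p from 0.144 to 0.336, log2FC from 0.59 to 0.72). With the olfactory receptor level as a covariate, the log2FC was 0.33 (adjusted p = 0.433, same test), and 0.16 in RNA2.

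**Figure D4:**
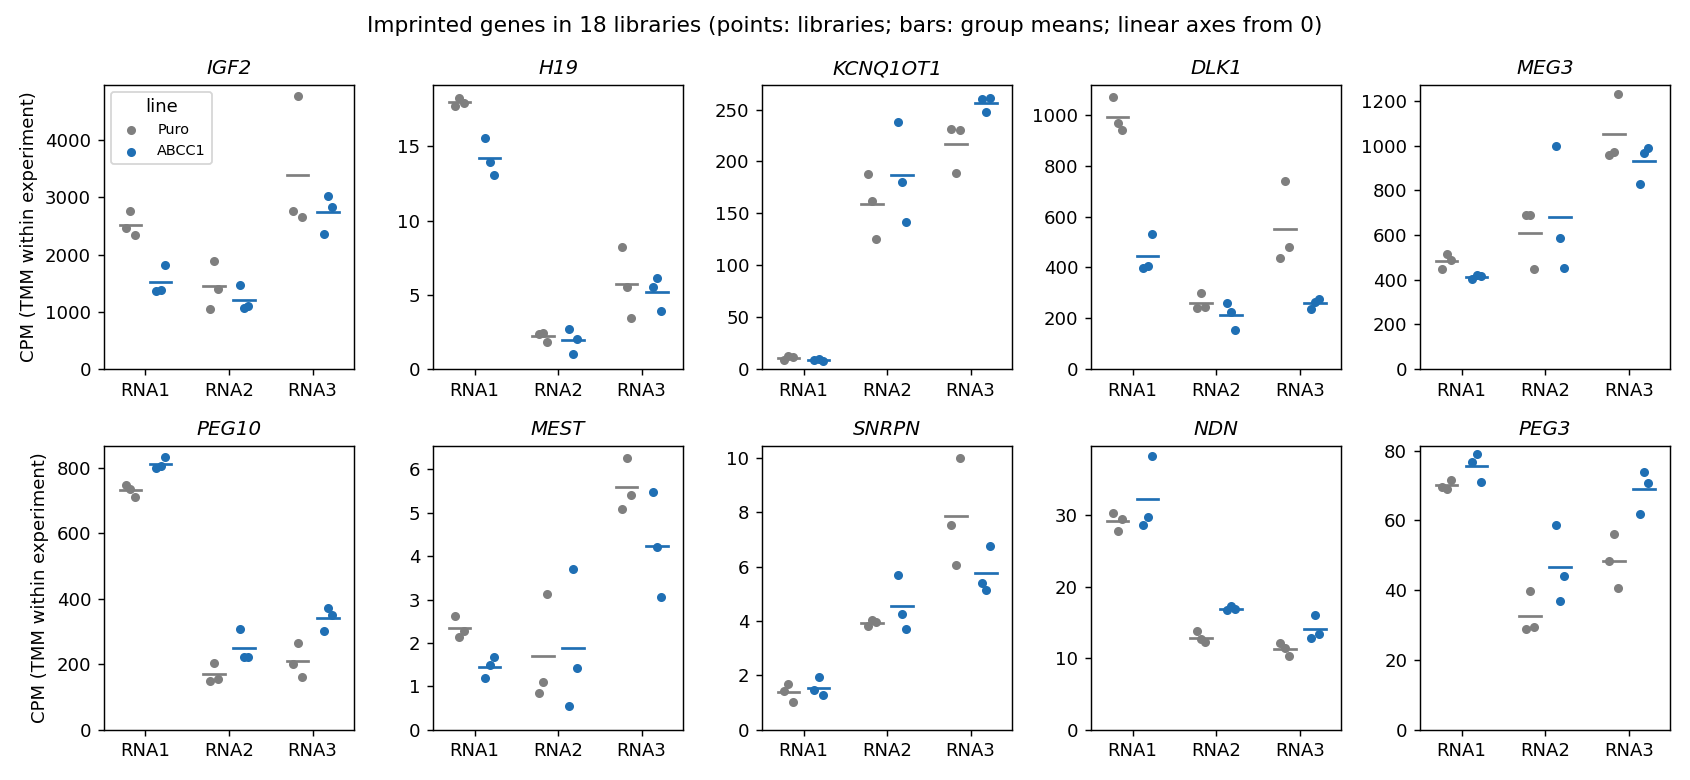
CPM of each imprinted gene in the 18 libraries, scaled within each experiment, with linear axes from 0, points for libraries and bars for the mean of the Puro and ABCC1 lines. DLK1 is lower in every ABCC1 library of RNA1 and RNA3, and PEG10 is higher in every ABCC1 library of all 3 experiments.

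SGCE, a paternally expressed sarcoglycan gene beside PEG10, did not share its direction. Its CPM were 31.8 ± 0.815 and 25.7 ± 1.56 in RNA1, where it was called lower with ABCC1 (log2FC −0.31, standard error 0.06, adjusted p = 0.00223, edgeR quasi-likelihood test, Benjamini-Hochberg adjusted). They were 23.5 ± 2.83 and 22.05 ± 0.975 in RNA2, and 14.7 ± 3.86 and 11.2 ± 1.91 in RNA3 (SD, n = 3, Puro first, log2FC −0.09 and −0.40, adjusted p = 0.753 and 0.327, same test). The ratio of PEG10 to SGCE was higher in each ABCC1 library than in any Puro library of the same experiment. It was 23.0 ± 0.510 against 31.7 ± 2.71 in RNA1, 7.22 ± 1.31 against 11.4 ± 2.64 in RNA2 and 14.5 ± 3.41 against 31.0 ± 5.19 in RNA3. PON2, a paraoxonase gene of the same cluster, was called higher in RNA1 (log2FC 0.26, adjusted p = 0.0186, same test), so that 2 of the 4 neighbours tested in RNA1 were called, beside 37.6% of all genes. None of the 9 tested in RNA2 and RNA3 was called, beside 1.7% and 2.8%.

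PEG3 (ENSG00000198300, chromosome 19, 57321445 to 57352096, minus strand) followed PEG10 in direction but was not called in any experiment by the main test. It had 69.7, 69.0 and 71.7 CPM against 76.7, 78.9 and 71.1 CPM in RNA1 (log2FC 0.11, standard error 0.05, adjusted p = 0.112, edgeR quasi-likelihood test, Benjamini-Hochberg adjusted), and the adjusted p was 0.0028 without ABCC1 replicate 3, the 1 ABCC1 library that lay below a Puro library. In RNA2 it had 28.8, 39.8 and 29.4 CPM against 58.6, 36.9 and 44.0 CPM (log2FC 0.51, standard error 0.18, adjusted p = 0.120, same test). The RNA3 values were 48.4, 56.2 and 40.7 CPM in the Puro and 62.0, 73.97 and 70.7 CPM in the ABCC1 libraries. These groups did not overlap (log2FC 0.51, standard error 0.17, adjusted p = 0.0768, same test), and the adjusted p was 0.0175 with DESeq2, 0.0159 when each library had to hold 10 counts or more, 0.0354 with the shared spread, 0.00155 without Puro replicate 2 and 0.0164 without ABCC1 replicate 1. With the olfactory receptor level as a covariate the log2FC of PEG3 was 0.23 in RNA3 (adjusted p = 0.666, same test) and 0.0981 in RNA2. Of its neighbours, 1 of 3 tested was called in RNA1, 1 of 7 in RNA2 and none of 7 in RNA3, beside 37.6%, 1.7% and 2.8% of all genes. MIMT1, a noncoding RNA, was called lower with ABCC1 in RNA1 (34, 18 and 31 against 23, 11 and 29 counts, log2FC −0.92, adjusted p = 0.0127, same test). ZNF264, a zinc finger gene, was called higher in RNA2 (16.7 ± 1.83 against 27.5 ± 2.38 CPM, SD, n = 3, log2FC 0.72, adjusted p = 0.0264, same test).

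NDN (ENSG00000182636, chromosome 15, 23930565 to 23932450, minus strand, no overlapping exon) had 30.3, 27.8 and 29.5 CPM against 28.6, 29.7 and 38.3 CPM in RNA1, with overlap. In RNA2 it had 13.8, 12.6 and 12.2 CPM against 16.7, 17.3 and 16.8 CPM, and in RNA3 12.1, 11.4 and 10.3 CPM against 12.8, 15.98 and 13.5 CPM. The ABCC1 libraries were higher without overlap in both. The log2FC was 0.14, 0.39 and 0.32 with standard errors of 0.10, 0.17 and 0.20, and none was called (adjusted p = 0.303, 0.178 and 0.462, edgeR quasi-likelihood test, Benjamini-Hochberg adjusted). Non-overlapping groups were found for 6 of the 10 genes in RNA1, 2 in RNA2 (PEG10 and NDN) and 5 in RNA3 (DLK1, PEG10, PEG3, NDN and KCNQ1OT1). Over all genes tested they were found for 50.4%, 29.8% and 19.5%.

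SNRPN (ENSG00000128739, chromosome 15, 25068794 to 25223870, plus strand) shares 42.1% of its exon bases with other genes, mainly SNURF, and only fragments on the rest were counted. It had 32 to 82 counts per library in RNA1, 82 to 149 in RNA2 and 60 to 96 in RNA3, with overlapping groups throughout (log2FC 0.14, 0.21 and −0.44, adjusted p = 0.652, 0.730 and 0.433, edgeR quasi-likelihood test, Benjamini-Hochberg adjusted). SNURF had at most 48 counts. Of the 4 other genes of this cluster tested in RNA1, 2 were called, 1 in each direction, beside 37.6% of all genes. None of the 8 tested in RNA2 and in RNA3 was called, beside 1.7% and 2.8%. SNHG14, the noncoding host of the snoRNAs downstream of SNRPN, was called lower in RNA1 (79.0 ± 2.81 against 66.9 ± 3.88 CPM, SD, n = 3, log2FC −0.24, adjusted p = 0.0043, same test).

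MEST (ENSG00000106484, chromosome 7, 130126012 to 130146133, plus strand) had 2.62, 2.13 and 2.28 CPM in the Puro and 1.18, 1.49 and 1.67 CPM in the ABCC1 libraries of RNA1. The groups did not overlap, at 0.610 times the Puro level (log2FC −0.71, standard error 0.16, adjusted p = 0.00589, edgeR quasi-likelihood test, Benjamini-Hochberg adjusted), from 48 to 114 counts. CEP41, a centrosomal gene beside it and 1 of 2 neighbours tested there, was also called lower in RNA1 (28.9 ± 0.289 against 22.1 ± 0.981 CPM, SD, n = 3, log2FC −0.39, adjusted p = 0.00032, same test). So 1 of 2 neighbours was called in RNA1, beside 37.6% of all genes, and none of 3 in RNA2 or in RNA3, beside 1.7% and 2.8%. In RNA2 and RNA3, where MEST is not separable from background, its counts of 14 to 81 gave log2FC of 0.16 and −0.40 with overlapping groups (adjusted p = 0.901 and 0.569, same test).

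RNA2 and RNA3 share a library kit, and the same line was therefore also compared between them in a fit of 12 libraries. By the order in which the study lists its experiments, RNA2 would be the cryopreserved and RNA3 the newly transfected cells, which the labels do not state. NDN was the 1 gene of the 10 called, in both lines. On the scale of this fit it had 17.4, 16.1 and 15.8 CPM in the RNA2 and 9.06, 8.68 and 7.81 CPM in the RNA3 Puro libraries. The ABCC1 libraries had 22.1, 22.5 and 21.7 CPM in RNA2 and 9.74, 12.8 and 10.8 CPM in RNA3. In neither line did the experiments overlap, and NDN was lower in RNA3 by log2FC −0.95 (standard error 0.18, adjusted p = 0.000174) in the Puro and −0.99 (standard error 0.18, adjusted p = 5.54e-05) in the ABCC1 line (edgeR quasi-likelihood test, Benjamini-Hochberg adjusted). A share of 1 in 10 stands against 14% of 41448 genes called in the Puro line, 1.81% higher and 12.2% lower in RNA3, and 34.4% in the ABCC1 line, 18.5% higher and 15.9% lower, and NDN was also the 1 gene without overlap, against 34.5% and 49.0%. The median log2FC of all genes was 0.22 and 0.54 (0.12 and 0.35 with RLE size factors). On each experiment's own scale, the mean olfactory receptor level was 0.580 in RNA2 and 1.58 CPM per kilobase in RNA3 for the Puro line. For the ABCC1 line it was 0.304 and 1.26. The part of this background in the medians was not tested. NDN stayed called under the 10 alternatives run for each line. The other 9 genes had log2FC between −0.45 and 0.98 in the Puro and between −0.45 and 0.69 in the ABCC1 line, with DLK1 at −0.45 in the ABCC1 line. DLK1 was called there by DESeq2 (log2FC −0.67, adjusted p = 0.0248), with RLE size factors (log2FC −0.67, adjusted p = 0.0384, same test) and without RNA2 ABCC1 replicate 3 (−0.66, adjusted p = 0.0259). In the Puro line PEG10 was called without RNA2 Puro replicate 1 or RNA3 Puro replicate 2 (adjusted p = 0.0408 and 0.0182), and MEST without RNA2 Puro replicate 3 (adjusted p = 0.0437). Experiment, culture history and depth cannot be told apart in this contrast.

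After subtracting each experiment's mean from log2(CPM + 0.5), Pearson's r over the 18 libraries was 0.96 for PEG10 and PEG3, 0.82 for IGF2 and DLK1, 0.73 for PEG10 and NDN and 0.71 for KCNQ1OT1 and MEG3, against 0.36 for H19 and IGF2 and 0.43 for MEG3 and DLK1, which share a cluster. Other pairs of neighbouring genes had 0.21 for H19 and KCNQ1OT1, 0.04 for IGF2 and KCNQ1OT1 and −0.30 for SNRPN and NDN, and the lowest of all pairs were MEST and PEG3 at −0.50, MEG3 and MEST at −0.47 and DLK1 and NDN at −0.47. These values are descriptive, since libraries also share line, depth and base composition. By the same measure, over 13637 genes with at least 1 CPM on average in each experiment, the genes most like DLK1 were BMP7 (r = 0.97) and CDC25B (r = 0.96). Those most like PEG10 were SON (r = 0.99) and NCAPD2 (r = 0.98), and for PEG3 they were KIF1B (r = 0.98) and BMS1 (r = 0.97). SCARA3 (r = 0.94) and MFAP4 (r = 0.93) came nearest to IGF2, and MIEF2 and MFSD5 (r = 0.93 each) to NDN. The nearest genes of the other members had lower r, ZNF731P and TMEM220 for H19 (0.89 and 0.82), ERVK13-1 and HCG18 for KCNQ1OT1 (0.89 and 0.83), MIAT and GMIP for MEG3 (0.85 and 0.84), MDH1B and CYRIA for MEST (0.85 and 0.79) and ARSG and DGKI for SNRPN (0.77 and 0.73).

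Beyond these 10, 88 other imprinted genes or cluster neighbours could be matched of 103 listed. In RNA1, 54 were tested and 20 called, 8 higher and 12 lower, a share of 37.0% beside 37.6% of all genes, with a median log2FC of −0.03. In RNA2, 2 of 84 were called (ZNF264 higher, IGF2-AS lower) and in RNA3 4 of 84, all lower (IGF2-AS, TP73, DIO3OS and RTL1), beside 1.7% and 2.8%. TP73, a gene of the p53 family, was lower with ABCC1 in RNA1 (36.8 ± 3.37 against 13.2 ± 0.724 CPM, SD, n = 3) and RNA3 (43.5 ± 7.28 against 25.1 ± 4.59 CPM). Its log2FC was −1.48 in RNA1 and −0.80 in RNA3 (adjusted p = 2.39e-07 and 0.00103, edgeR quasi-likelihood test, Benjamini-Hochberg adjusted), and −0.41 in RNA2, where it was not called. Other called genes of RNA1 with the largest changes were ZC3H12C (log2FC −0.81), L3MBTL1 (0.51) and ZNF597 (0.41).

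Among 29 matched factors that set or keep imprints, 24 were tested in RNA1 and 14 called, 5 higher and 9 lower, mostly by small amounts, a share of 58.3% beside 37.6% of all genes. DNMT1, the maintenance DNA methyltransferase, was lower (log2FC −0.26, adjusted p = 0.000426, edgeR quasi-likelihood test, Benjamini-Hochberg adjusted), as was DNMT3B, a de novo methyltransferase (log2FC −0.22, adjusted p = 0.0201, same test), while ZNF202 was higher (log2FC 0.21, adjusted p = 0.0145, same test). NLRP5, an oocyte gene, had 18, 12 and 22 counts in the Puro and 0 in each ABCC1 library of RNA1 (adjusted p = 0.000162, same test). In RNA3 it had 188, 164 and 177 against 161, 91 and 107 counts (log2FC −0.73, adjusted p = 0.0216, same test) and was the 1 of 29 called, beside 2.8% of all genes. Per kilobase it lay at 2.64 times the olfactory receptor level in the Puro and 2.01 times in the ABCC1 libraries of RNA3, and on this scale that level was itself lower with ABCC1. None of 29 was called in RNA2, beside 1.7%. Of 23 genes that act with IGF2 or DLK1, 19 were tested in RNA1 and 12 called, 6 in each direction, a share of 63.2% beside 37.6% of all genes. IGFBP5 and IGFBP3, which bind IGF2 in the extracellular space, were lower in RNA1 (log2FC −1.18 and −1.13, adjusted p = 1.87e-06 and 6.56e-06, same test). IGF2BP1 and IGF2BP2, which bind IGF2 mRNA, had the largest values (log2FC 2.24 and −2.05) from means of only 0.254 and 0.429 CPM. NOTCH2, a receptor of the Notch pathway, was higher in RNA1 (60.1 ± 3.10 against 90.6 ± 1.61 CPM, SD, n = 3, log2FC 0.59, adjusted p = 6.04e-06, same test) and in RNA2 (22.9 ± 1.63 against 38.6 ± 4.76 CPM, log2FC 0.75, adjusted p = 0.0196, same test), the 1 of 23 called there, beside 1.7% of all genes. None of the 23 was called in RNA3, where NOTCH2 had a log2FC of 0.15 and IGFBP5 one of −0.54 (adjusted p = 0.712 and 0.0563, same test).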

How the data were processed

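Raw counts per gene were deposited for 18 libraries. Per the labels and the study's methods, the authors demultiplexed reads with bcl2fastq 2.18, aligned them with STAR 2.7.3a to GRCh37 with Ensembl release 74 genes, 92 spike-ins and 6 vector sequences added, and counted with featureCounts (Subread 2.0.0). Counting took no account of strand and left out fragments that lie on exons of several genes, which lowers the counts of overlapping genes such as SNRPN and IGF2. The RNA1 labels name 2 library kits, and the study's methods 1 of these.

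Libraries were grouped by line and experiment as their labels give them, 3 per group. Counts were filtered with filterByExpr (minimum count 10), scaled by TMM and tested with edgeR 4.0.16's quasi-likelihood test with robust moderation (R 4.3.3, limma 3.58.1). P-values were adjusted by Benjamini-Hochberg over all features tested, and a gene was called at an adjusted p of at most 0.05. DESeq2 1.42.0 was an alternative. The fits were tested on simulated counts. Ratios were compared with exact permutation tests (scipy 1.17.1), tables were handled with pandas 2.3.3 and numpy 2.4.6 in Python 3.11.15, and plots were drawn with matplotlib 3.10.9. Likeness used log2(CPM + 0.5), with CPM computed from the deposited counts.

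The gene members and lists were chosen with earlier results of these data known. All 10 members are named, along with, where reported here, called neighbours in their clusters, up to 8 other called imprinted genes of at least 1 CPM and up to 4 called genes of each further list per comparison, by the size of the log2FC, as well as genes used in a ratio. Promoter windows came from RefSeq on GRCh38.p14 and matched 5 members of 10. Alternatives were other scaling, filters, DESeq2, a replicate block, a spread shared by 18 libraries, the olfactory receptor level as a covariate, and leaving out each library. Leaving out libraries in the joint fit and between RNA2 and RNA3 was added after seeing the data. Same-numbered libraries of the lines did not deviate together (r from −0.28 to 0.13), so they were not treated as pairs. Some results for genes of these lists are not reported here.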

Additional observations from a re-analysis of the deposited data

How the results depend on the processing

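DLK1 kept its direction and its call in RNA1 and RNA3 under all 13 alternatives of each, as did NDN between RNA2 and RNA3 under all 10. Counts of calls over all genes moved more. In RNA1 6382 genes were called, but 1528 with a spread shared by the 18 libraries and 1255 with the olfactory receptor covariate, and members called fell from 6 to 1 in both fits. In RNA2 581 genes were called, against 2727 with DESeq2, 1086 with RLE size factors, 1402 with no filter on low counts, 4924 with the shared spread and 9 with the covariate. Of the members, none was called there, 1 with DESeq2 and 2 with the shared spread. In RNA3 1021 genes were called, against 1553 with DESeq2 and 1725 with at least 10 counts in every library. DESeq2 called 1 member in the test between experiments, and DESeq2 and RLE size factors each called 2 between RNA2 and RNA3 in the ABCC1 line. In RNA1 and RNA2 the covariate separated the lines without overlap, so it can hardly be told apart from line there. The causes were not tested.

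Same-numbered libraries share only a number. With the replicate block 5356, 710 and 1885 genes were called in RNA1, RNA2 and RNA3, and 5, 0 and 3 members. PEG10 lost its call in RNA1 (adjusted p = 0.0555) and PEG3 gained one in RNA3 (adjusted p = 0.0163). No member was called in the test between experiments with the block, and 1 in each line between RNA2 and RNA3.

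Leaving out 1 library gave 4663 to 7827 genes in RNA1, 8 to 1359 in RNA2 and 394 to 2762 in RNA3. RNA2 fell to 8 without Puro replicate 3, 24 without ABCC1 replicate 2, 208 without ABCC1 replicate 1, 221 without Puro replicate 2 and 301 without Puro replicate 1, and reached 1359 without ABCC1 replicate 3. RNA3 reached 2762 without Puro replicate 2 and 2047 without ABCC1 replicate 1, and 394 to 470 without any other library. Members called were 5 to 7 in RNA1, 0 in each RNA2 fit, 1 to 3 in RNA3, 1 to 2 between RNA2 and RNA3 in each line and 0 in the test between experiments.

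Log2FC that changed sign were all uncalled. With the covariate they were −0.0122 for NDN in RNA1, −0.18 for KCNQ1OT1, −0.62 for MEG3 and −0.22 for SNRPN in RNA2, and 0.0176 for H19 in RNA3. MEST in RNA2 was −0.0231 with the block, and MEG3 between RNA2 and RNA3 in the Puro line was −0.0613 with DESeq2 and RLE size factors. Without 1 library, values ranged from −0.0246 to 0.28 for SNRPN and from −0.00763 to 0.23 for NDN in RNA1, from −0.51 to 0.11 for H19, −0.22 to 0.42 for MEG3 and −0.76 to 0.95 for MEST in RNA2, and from −0.38 to 0.23 for H19 and −0.42 to 0.0269 for IGF2 in RNA3. Between RNA2 and RNA3 they ranged from −0.17 to 0.10 for MEG3 in the Puro line, and from −0.52 to 0.0725 for MEG3, −0.0269 to 1.36 for MEST and −0.31 to 0.0031 for PEG3 in the ABCC1 line.

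RNA3 had the fewest counts and the highest background, which limits H19 and MEST most. SNRPN also lay near the background by whole exon length, but 42.1% of its exon bases were not counted.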
